A study of Mus musculus with 64 samples.

Results

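The genes described here are the protein-coding mouse genes whose symbol is Zfp followed only by a number, a name given to zinc finger proteins, as far as they were expressed in activated CD4 T cells. The genes were selected on the authors' deposited group means, and a gene was included when its mean normalised read count reached 100 in at least 1 of 16 groups of cells, and Zfp36, which encodes a CCCH zinc finger protein that degrades mRNA, was left out. The rule took 167 of the 330 protein-coding Zfp-number genes in the deposited table of 23134 genes. Of the 167 genes, 76 reached 100 in all 16 groups and 91 reached it in some groups only, among them 10 in a single group. The genes just inside the limit were Zfp54, Zfp626 and Zfp953, with highest group means of 100.725, 101.225 and 101.975, and those just outside it were Zfp456, Zfp513 and Zfp560, with 99.6, 98.55 and 98.425. Because a gene that reached 100 in some groups only had to vary to be counted at all, the number of such genes that changed is a description and supports nothing, and the 76 genes that reached it everywhere are given apart.

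The libraries were made from CD4 T cells of the spleen. The mice were C57BL/6J of 4 genotypes, with 4 libraries for each genotype and time. WT cells carried the Cd4-Cre-ERt2 transgene alone, DKO cells were Rc3h1/2 fl/fl with Cd4-Cre-ERt2, KO cells were Zc3h12a fl/fl with Cd4-Cre-ERt2, and TKO cells were Rc3h1/2 fl/fl and Zc3h12a fl/fl with Cd4-Cre-ERt2. Every group, WT included, had the Cre, which is driven by the Cd4 promoter, and received 4'-OH-tamoxifen, the ligand that activates it. All cells were activated in culture with anti-CD3 and anti-CD28 under Th1 conditions and expanded in IL-2, and were then left untreated (0 h) or restimulated with anti-CD3 and anti-CD28 for 1, 2 or 4 h. Rc3h1 and Rc3h2 encode Roquin-1 and Roquin-2, and Zc3h12a encodes Regnase-1, RNA-binding proteins that shorten the life of mRNAs of T cell activation genes. Whether the 4 libraries of each group stem from different mice is not stated in the labels. The p-values rest on the spread between libraries of a group, a spread that may be technical. In the limma fits this spread was pooled over all 16 groups.

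A C2H2 zinc finger is a short protein fold in which a pair of cysteines and a pair of histidines hold a zinc ion, and a row of such fingers reads a stretch of DNA, each finger contacting a few bases. Many Zfp proteins also carry a KRAB box, which binds the corepressor Trim28. Trim28 in turn brings the histone methyltransferase Setdb1, and the pair is best known for silencing endogenous retroviruses and other transposons. Zfp proteins without a KRAB box are a mixed group that includes activators bound at promoters, partners of corepressors and RNA-binding proteins.

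A KRAB box was found by its pattern in the annotated coding sequence of 80 of the 167 genes, and 87 had none. A SCAN domain, which joins zinc finger proteins into dimers, was found in 9 genes, and 5 of these also had a KRAB box. The number of C2H2 fingers ranged from 0 to 36 with a median of 10, and the median was 12 in genes with a KRAB box and 7 in genes without one. The most fingers, 36, were found in Zfp142, and no finger matched the pattern in Zfp259, Zfp330, Zfp703 and Zfp935.

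Sequences of the coding strand (GENCODE vM21 on GRCm38) are shown for Zfp948, the gene with the largest rise at 1 h, Zfp157, the gene with the largest fall at 1 h, and Zfp386, which fell later. Below are their KRAB boxes, 90 bases each, with the codons of the acidic residue and the tryptophan that open the conserved core in capitals. The box of Zfp948, which rose, matched that of Zfp157, which fell, at 67 of 90 bases, and the box of Zfp386 matched those of Zfp948 and Zfp157 at 68 and 63 bases.
Zfp948 KRAB box: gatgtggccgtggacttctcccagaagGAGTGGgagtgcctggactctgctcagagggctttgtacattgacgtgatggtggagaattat
Zfp157 KRAB box: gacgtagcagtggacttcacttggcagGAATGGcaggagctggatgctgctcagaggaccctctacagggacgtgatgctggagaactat
Zfp386 KRAB box: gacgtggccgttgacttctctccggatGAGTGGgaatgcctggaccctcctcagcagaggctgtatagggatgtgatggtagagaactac

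For comparison, 1 finger with its linker is shown for Zfp948 and Zfp157 and for Zfp281 and Zfp131, which have no KRAB box and rose at 1 h. Each stretch is 78 bases long, and capitals mark the codons of the cysteines and histidines that hold the zinc ion. The fingers of Zfp948 and Zfp157 were identical at 55 of 78 bases, and the other pairs shown at 35 to 41. A finger of the KRAB gene Zfp386, not shown, matched those of Zfp948 and Zfp157 at 44 and 43 bases. It matched those of Zfp131 and Zfp281 at 43 and 39.
Zfp948 finger: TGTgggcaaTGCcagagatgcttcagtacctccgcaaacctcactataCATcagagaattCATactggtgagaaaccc
Zfp157 finger: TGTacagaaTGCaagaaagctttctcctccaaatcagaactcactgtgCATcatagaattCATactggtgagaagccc
Zfp281 finger: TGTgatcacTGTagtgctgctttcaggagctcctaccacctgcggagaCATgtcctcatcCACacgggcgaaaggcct
Zfp131 finger: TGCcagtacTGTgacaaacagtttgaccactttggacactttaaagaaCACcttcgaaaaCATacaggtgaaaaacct

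Zinc finger genes resemble each other, so reads can be shared between copies. In 95 of the 167 genes no stretch of 50 coding bases occurred in another annotated gene, and in 16 genes more than 20% of such stretches did. The counting of these 16, which include Zfp935 (100%), Zfp706 (92.2%), Zfp617 (64.3%), Zfp932 (55.6%), Zfp764 (34.5%) and Zfp330 (34.1%), is uncertain. The sources used here do not say whether the counting used strand, so the values of genes that overlap a neighbour are uncertain too. Among the genes named below, the neighbour's reads amounted to 120% of the gene's own for Zfp566 (Gm26920, on the same strand) and 99.4% for Zfp335 (Pcif1).

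The libraries held 5369860 to 11666340 reads assigned to genes, with a median of 7720312, and 16140 genes passed the filter on low values. The restimulation genes Egr1, Egr2, Fos and Nr4a1, summed, lay between 14.8 and 56.1 CPM (reads of a gene scaled to a fixed library total) in WT cells at 0 h and reached up to 7370 CPM in restimulated cells. Of the targeted genes, Rc3h1 was lower in DKO than in WT cells at 1, 2 and 4 h (67.2 ± 2.59 against 151 ± 8.16 CPM at 4 h, SD, n = 4 each, exact 2-sided permutation p = 0.0286, the smallest that 4 against 4 libraries allow, adjusted p = 0.0686 over 36 tests) and had the same p in TKO cells. Rc3h2 was not lower in either (80.4 ± 9.16 in DKO against 69.6 ± 12.2 CPM in WT at 4 h). At 0 h it was higher in both (87.2 ± 7.54 in DKO and 98.0 ± 13.0 in TKO against 67.4 ± 5.66 CPM in WT), and likewise at 1 h, with the same permutation p. Zc3h12a was lower in KO and TKO cells at 1 h (69.7 ± 14.2 and 59.7 ± 4.68 against 114 ± 14.8 CPM) but not at 0 h (13.3 ± 3.26 and 16.1 ± 4.72 against 10.4 ± 1.14 CPM). In DKO cells Zc3h12a was higher than in WT at 0 h (35.8 ± 2.77 CPM, the same permutation p). Reads from the parts of these genes outside the deletion may be counted, so the levels check the labels only in part. Markers of T cells, 7 of 7 genes, summed to between 690 and 1740 CPM in every library. Of the other lists, those of CD8 T cells (2 of 2 genes in the table, 3.43 to 51.5 CPM), myeloid cells (5 of 6, 2.64 to 11.7), NK cells (3 of 3, 0.243 to 3.78) and erythroid cells (2 of 3, 0 to 3.08) were low. The B cell list (6 of 6, 13.3 to 511 CPM) consisted almost wholly of Ighm, with a mean of 152 CPM, while Cd79a and Ms4a1 stood at 0.363 and 0.231. In such bulk samples fewer cells of a type and less RNA per cell cannot be told apart, and the part of other cells in the results below was not tested.

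Levels of the 167 genes were compared per kilobase of exon. The median was 3.88 CPM per kb, the range 0.669 to 31.2, and 91 genes lay above the median of all 13899 protein-coding genes tested, 3.52. The 167 genes were chosen by a floor on their level and the 13899 were not. The comparison is thus in part built in and is a description only. The highest were Zfp207 (31.2), a spindle protein that chaperones Bub3, Zfp827 (22.2), a binding partner of the NuRD corepressor at telomeres, Zfp106 (22.0), an RNA-binding protein needed by motor neurons, Zfp131 (17.5), which carries a BTB domain, and Zfp800 (16.1). The lowest was Zfp945, with 0.669. Genes with a KRAB box had a median of 3.16 CPM per kb and those without one 5.0. Of the KRAB genes 24 of 80 (30.0%) reached 100 in all 16 groups, against 52 of 87 (59.8%) of the others. Together the 167 genes took between 0.399% and 0.659% of the reads of a library. In WT cells the group mean was 0.474% at 0 h, 0.427% at 1 h, 0.458% at 2 h and 0.558% at 4 h.

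The first comparison asked what restimulation did to these genes in WT cells. After 1 h 35 of the 167 genes were higher and 55 lower than at 0 h, after 2 h 58 higher and 62 lower, and after 4 h 66 higher and 46 lower (limma, adjusted p under 0.05 over all genes). The shares of all genes tested that were higher and lower were 18.7% and 12.4% after 1 h, 26.5% and 25.4% after 2 h, and 24.6% and 27.1% after 4 h. The median log2 change of the 167 genes was −0.11 at 1 h, 0.01 at 2 h and 0.15 at 4 h, beside −0.10, −0.16 and 0.01 over all genes tested. The scale of the libraries matters for such counts. Left as the authors scaled them, the libraries gave 51 rises and 42 falls at 1 h, with the median of all genes shifted by 0.14, and 32 rises and 42 falls were called at 1 h under every one of 3 scalings. At 2 h 57 rises and 57 falls, and at 4 h 66 rises and 42 falls, were called under all 3.

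The counts differed between genes with and without a KRAB box. Of the 80 KRAB genes 9 rose and 37 fell at 1 h, with a median log2 change of −0.33, and of the 87 others 26 rose and 18 fell, with a median of 0.11. At 2 h 19 KRAB genes rose and 40 fell (median −0.30) against 39 and 22 of the others (median 0.19), and at 4 h 21 rose and 24 fell (median −0.06) against 45 and 22 (median 0.39). Under all 3 scalings the counts at 1 h were 8 and 30 for KRAB genes and 24 and 12 for the others. Among the 76 genes at 100 or more in every group, 3 of 24 KRAB genes rose and 7 fell at 1 h, against 20 and 6 of 52 others. Among the 91 genes at 100 or more in some groups only, 6 of 56 KRAB genes rose and 30 fell, against 6 and 12 of 35 others. KRAB genes with 12 or more fingers fell at 1 h in 23 of 42 cases, and those with fewer in 14 of 38. The classes were compared by these counts alone, and the difference between them was not tested.

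**Figure D1:**
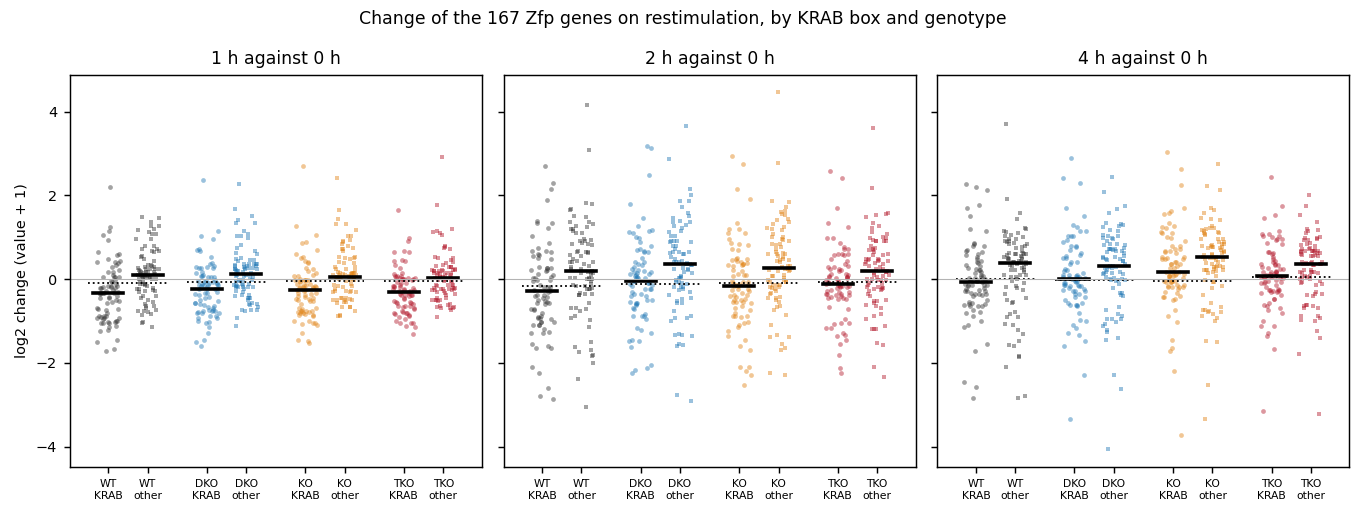
Log2 changes of the 167 genes from 0 h to 1, 2 and 4 h (a panel each) in WT, DKO, KO and TKO cells, a point per gene, with genes that have a KRAB box and genes that have none (other) side by side. Bars mark the median of each set and dotted lines the median of all genes tested, and in WT cells the KRAB bar lies at −0.33 at 1 h and −0.30 at 2 h and the other bar at 0.11 and 0.19.

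The share of genes called also differed with the level of a gene, taken as its highest mean over the 16 groups. That mean includes the restimulated groups, so a rise can itself lift a gene into a higher class. Low genes also have few reads for a call. Part of the trend across classes is thus built in, and how much was not tested. Among all protein-coding genes tested, the share called lower at 1 h was 11.2% for genes whose highest group mean was under 100, 22.0% from 100 to 200, 18.8% from 200 to 400, 12.9% from 400 to 800 and 7.74% at 800 or more, while the share called higher grew from 3.84% in the lowest of these classes to 48.1% in the highest. In the same classes 42.0%, 47.7%, 48.3% and 33.3% of the Zfp-number genes with a KRAB box were called lower, the last of them over 6 genes, and 32.1%, 27.3%, 25.0%, 10% and 19.0% of those without one. The 125 Zfp-number genes under 100 that passed the filter gave 2 rises and 47 falls at 1 h, and among the 53 of them without a KRAB box 0 rose and 17 fell (limma). For later times the classes from 100 upwards are given as ranges over all protein-coding genes in WT cells. At 2 h 18.9% to 54.4% were higher and 23.5% to 37.4% lower, beside 34.7% and 37.1% of the 167 genes. At 4 h 24.4% to 40.5% were higher and 34.9% to 36.6% lower, beside 39.5% and 27.5%.

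**Figure D2:**
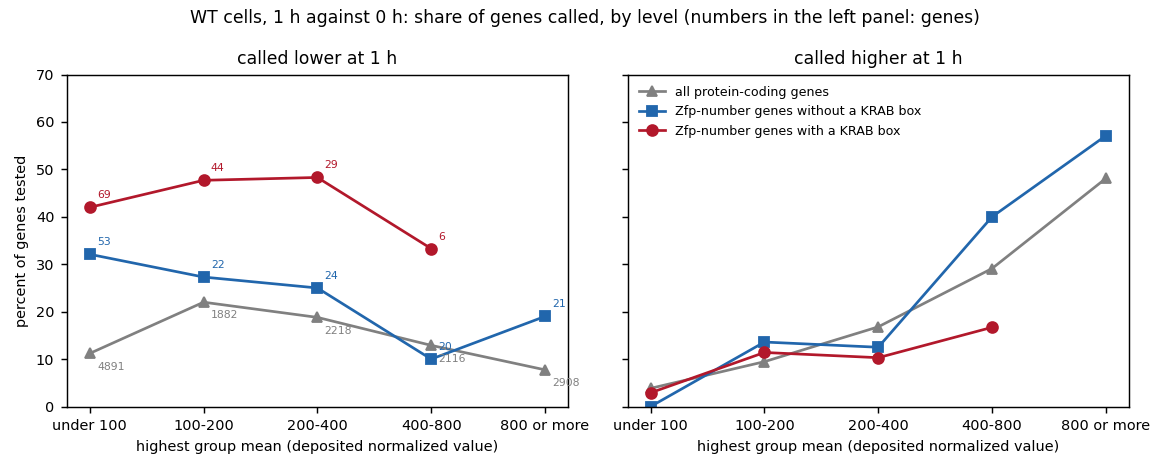
Share of genes called higher or lower at 1 h in WT cells, by the highest group mean of the gene (restimulated groups included), for all protein-coding genes and for Zfp-number genes with and without a KRAB box, leaving out classes of fewer than 5 genes (small numbers give the genes in each class). In the class from 200 to 400, 48.3% of the KRAB genes, 25.0% of the other Zfp genes and 18.8% of all protein-coding genes were called lower.

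The largest rise at 1 h was that of Zfp948, a KRAB gene (chr17:21567008-21588699, plus strand, GRCm38). Its normalised values were 41.8, 50.3, 52.2 and 51.9 before restimulation. They were 227, 290, 249 and 171 at 1 h, then 277, 286, 339 and 407 at 2 h, with 229, 240, 252 and 200 after 4 h. All restimulated libraries stood above all those at 0 h, with log2 changes of 2.21 ± 0.22 (SE, limma adjusted p = 2.3e-12) at 1 h, 2.70 ± 0.22 at 2 h and 2.21 ± 0.22 at 4 h. The genes whose course over the 64 libraries was most like it were Zfp330, a nucleolar protein (r = 0.92), Zfp346, which binds double-stranded RNA (r = 0.90), and Zfp131 (r = 0.89), values that describe libraries sharing the same time course.

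Zfp131 rose from 334, 307, 358 and 315 at 0 h to 1020, 1110, 840 and 762 at 1 h, a log2 change of 1.49 ± 0.11 (limma adjusted p = 8.3e-17). It then lay between 734 and 883 at 2 h and between 648 and 750 at 4 h, so that no restimulated library overlapped those at 0 h. Zfp281, a regulator of pluripotent stem cells that binds GC-rich DNA, rose from 271, 312, 293 and 292 to 643, 726, 771 and 705 at 1 h (1.28 ± 0.11). It came back to between 374 and 434 at 4 h, where the change was 0.43 ± 0.11 (limma adjusted p = 0.0011). The other genes with the largest rises at 1 h were Zfp346 (1.45 ± 0.13) and Zfp275 (1.36 ± 0.12), and both remained called at 2 and 4 h.

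Later rises were larger. Zfp827 had values of 131, 86.6, 131 and 260 before restimulation and 233, 577, 213 and 198 at 1 h. These became 1940, 1400, 2880 and 5140 at 2 h, with 1410, 1530, 2880 and 1890 after 4 h. Libraries of 0 h and 1 h overlapped, and those of 2 h and 4 h stood above both, with log2 changes of 0.96 ± 0.32 at 1 h, 4.15 ± 0.32 at 2 h (limma adjusted p = 3.4e-16) and 3.71 ± 0.32 at 4 h. The courses most like it were those of Zfp35 (r = 0.88), Zfp146 (r = 0.87) and Zfp106 (r = 0.86). Zfp703, a corepressor amplified in some breast cancers, rose from 33.4, 24.6, 38.8 and 42.7 to 247, 252, 351 and 349 at 2 h (3.08 ± 0.24, limma adjusted p = 1.2e-16) and lay between 83.4 and 146 at 4 h (1.59 ± 0.24). Zfp566, a KRAB gene that shares reads with a neighbour, did not pass the test at 1 h (−0.17 ± 0.26, limma adjusted p = 0.64) and rose at 2 h from 20.3, 29.2, 26.8 and 20.3 to 144, 153, 125 and 79.2 (2.30 ± 0.26). Zfp202, a KRAB and SCAN gene whose human counterpart represses genes of lipid metabolism, rose by 2.15 ± 0.23 at 2 h and 2.27 ± 0.23 at 4 h. Zfp593, a factor of ribosome assembly, rose by 1.92 ± 0.21 at 4 h.

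The falls at 1 h were led by KRAB genes. Zfp157 fell from 56.2, 71.4, 94.0 and 86.5 to 21.6, 25.3, 23.2 and 19.9 (−1.71 ± 0.17, limma adjusted p = 2.1e-12), with no overlap. It stood at 32.0, 39.3, 26.4 and 25.5 at 2 h and was back at 71.1, 71.3, 72.1 and 61.6 at 4 h, where the test was not passed (−0.13 ± 0.17, limma adjusted p = 0.59). Zfp60 had the same kind of course, with −1.51 ± 0.18 at 1 h and 0.22 ± 0.18 at 4 h (limma adjusted p = 0.34). Zfp39 fell by 1.68 ± 0.25 on the log2 scale at 1 h and was still lower at 4 h (−0.78 ± 0.25).

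Other genes fell further with time. Zfp287, a KRAB and SCAN gene, fell from 275, 269, 267 and 280 at 0 h to 106, 114, 114 and 120 at 1 h and 43.7, 40.7, 44.8 and 26.8 at 2 h (−1.25 ± 0.15 and −2.80 ± 0.15, limma adjusted p = 5e-23 at 2 h), and remained low at 4 h (−2.57 ± 0.15). Zfp831, without a KRAB box, fell from 295, 295, 279 and 353 to 36.8, 34.0, 29.0 and 45.1 at 2 h (−3.05 ± 0.24), and Zfp386 from 295, 305, 303 and 405 to 58.1, 43.4, 25.1 and 57.3 (−2.86 ± 0.21). These are falls with a wide gap between the groups. Zfp810 (−2.61 ± 0.22 at 2 h), Zfp395 (−2.79 ± 0.49 at 4 h) and Zfp945 (−2.85 ± 0.22 at 4 h) were the others with the largest falls. Zfp395 varied most at 0 h, with 238, 163, 196 and 454, and its values at 2 and 4 h lay between 28.9 and 69.5, below all of these.

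**Figure D3:**
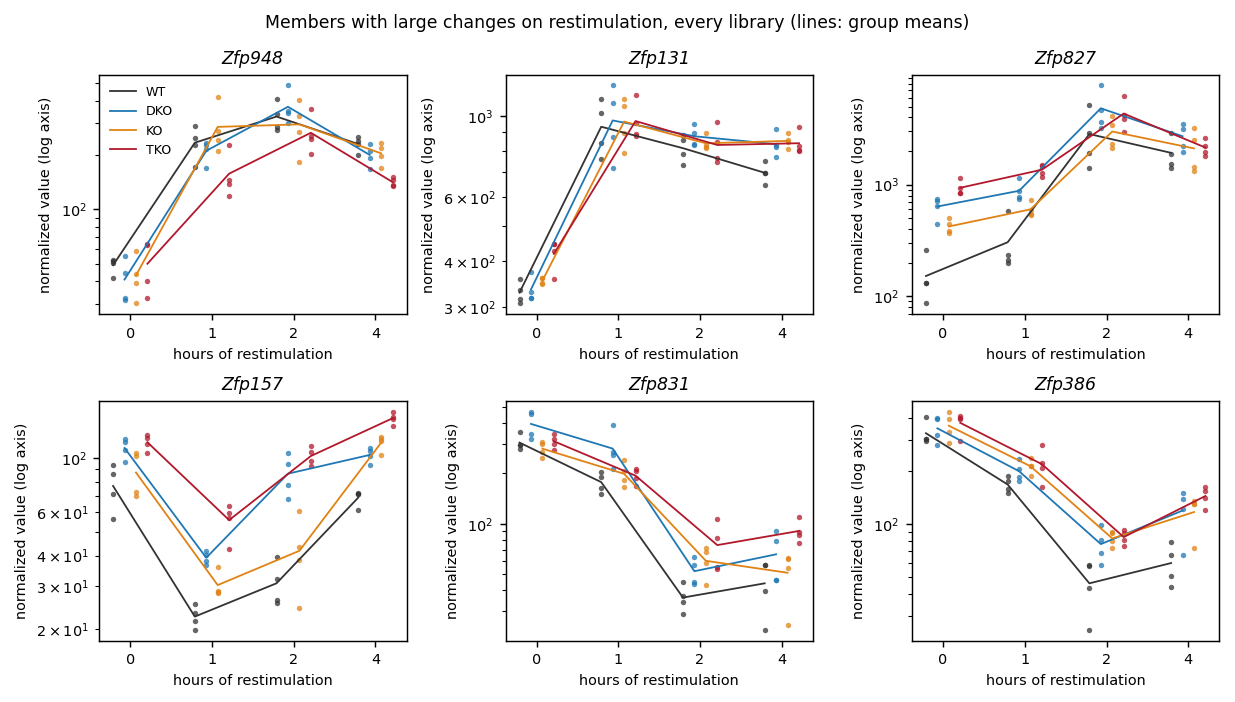
Normalised values of Zfp948, Zfp131, Zfp827, Zfp157, Zfp831 and Zfp386 in every library at 0, 1, 2 and 4 h, on a log axis, with group means joined for each genotype. In WT cells Zfp157 is low at 1 h and back near its level at 4 h, while Zfp831 and Zfp386 remain low.

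Members with known roles fell on both sides. Zfp207, the highest gene per length, did not pass the test at any time (0.11 ± 0.08, 0.03 ± 0.08 and 0.11 ± 0.08). Zfp91, a zinc finger protein that thalidomide analogs direct to degradation, rose at all 3 times (0.79, 0.62 and 0.60), as did Zfp622, a ribosome assembly factor (1.07, 0.81 and 0.34), Zfp451, a SUMO ligase (0.49, 1.25 and 1.12), and Zfp809, a KRAB protein that silences murine leukemia viruses (0.64, 0.57 and 0.39). Zfp445, a KRAB protein of genomic imprinting, and Zfp568, a KRAB repressor of a placental Igf2 transcript, passed only at 2 and 4 h (0.48 and 0.44, and 1.03 and 1.20). Zfp217, an oncogene product that works with CtBP and Kdm1a, fell at all 3 times (−1.14, −1.14 and −1.59), as did Zfp292 (−0.65, −2.01 and −1.08) and Zfp652 (−0.49, −1.82 and −2.10). Zfp335, which T cell maturation requires, rose at 2 h only (0.43), and Zfp143, an activator bound at promoters, fell at 1 h only (−0.45).

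Of the 55 genes that fell at 1 h, 44 were also lower at 2 h and 30 at 4 h, and 3 were higher than at 0 h by 4 h. For the KRAB genes among them the numbers were 37, 32 and 19, with 0 higher at 4 h (limma). Of the 35 that rose at 1 h, 31 were also higher at 2 h and 30 at 4 h, and 1 was lower at 4 h. Another 12 genes rose at 4 h only. All these changes are taken from the same WT libraries of 0 h, so a call at one time makes a like call at another more likely. The same counts over all genes tested were not made.

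Zfp genes lie in runs along the chromosomes, and 38 of the 167 were on chromosome 7 and 23 on chromosome 17. With gaps of at most 500 kb, 7 runs of at least 4 genes were found. The longest, chr17:21008903-23193252 (GRCm38), held 14 genes, all with a KRAB box, of which 1 rose and 10 fell at 1 h. The gene that rose was Zfp948, the gene with the largest rise of all, and its neighbours included Zfp53 (−1.14), Zfp760 (−1.11) and Zfp40 (−1.03). At 2 and 4 h Zfp52 rose too, by 1.35 and 1.69. The run at chr7:29768552-30169750 held 10 genes, 8 of them with a KRAB box, of which 1 rose and 3 fell at 1 h and 6 rose and 3 fell at 2 h, Zfp566, Zfp568 and Zfp146 (1.11) among the rises.

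Promoters, 250 bases before to 50 after the start (RefSeq, GRCm38.p6), were found for 135 of the 167 genes, 72 with a KRAB box and 63 without. The letters GGGGCGG, known as the GC box and read by Sp1-like factors, were searched on both strands. A gene was counted when any of its promoters held them. That gave 16.7% of the KRAB genes and 54.0% of the others, beside 46.0% of the 10272 protein-coding genes tested that had a promoter. Of all 32851 promoters in the table, counted singly and not by gene, 23.2% held them. The median G+C content was 53.3%, 62.3% and 60.3% in the first 3 sets. An AP-1 site (TGANTCA) occurred in 5.56% of the KRAB genes, 6.35% of the others and 6.38% of the genes tested (7.81% of all single promoters). A CRE (TGACGTCA) occurred in 6.94%, 3.17% and 3.44% (1.79% of all single promoters). An Ets site (CCGGAAG) occurred in 16.7%, 25.4% and 18.7% (8.86%), an E-box (CACGTG) in 11.1%, 6.35% and 11.4% (7.15%), and an Egr site (GCGTGGGCG) in 0.0%, 1.59% and 1.36% (0.612%). None of the 6 motifs contains another, all were searched on both strands, and a match is only a match of letters. The 250 bases before the start are shown for Zfp281 (chr1:136624651-136624900, plus strand), which rose at 1 h and has a GC box at 224 and at 96 bases before the start, in capitals and here on the other strand as CCGCCCC, and for Zfp157 (chr5:138441226-138441475, plus strand), the gene with the largest fall at 1 h, in which none of the 6 motifs was found.
Zfp281 promoter: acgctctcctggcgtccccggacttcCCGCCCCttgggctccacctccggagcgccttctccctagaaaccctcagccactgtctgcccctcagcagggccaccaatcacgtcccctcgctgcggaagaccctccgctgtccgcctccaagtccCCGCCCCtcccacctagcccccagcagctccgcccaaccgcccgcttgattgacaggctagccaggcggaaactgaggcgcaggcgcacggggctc
Zfp157 promoter: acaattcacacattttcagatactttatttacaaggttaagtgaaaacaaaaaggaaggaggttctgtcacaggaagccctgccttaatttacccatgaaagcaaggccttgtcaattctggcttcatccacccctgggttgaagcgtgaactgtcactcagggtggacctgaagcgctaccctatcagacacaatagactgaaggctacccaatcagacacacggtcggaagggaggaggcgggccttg

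The second comparison asked whether the knockout cells, which share no library with the WT cells, responded to restimulation in the same genes. In DKO cells 37 of the 167 genes rose and 51 fell at 1 h, with 67 rises and 46 falls at 2 h, and 71 rises and 45 falls at 4 h. The shares of all genes tested that rose and fell in DKO cells were 19.3% and 12.6%, 29.6% and 25.5%, and 28.2% and 26.9% at these times. KO cells had 34 rises and 45 falls at 1 h, 65 rises and 54 falls at 2 h, and 90 rises and 26 falls at 4 h, with 18.9% and 10.3%, 30.1% and 27.9%, and 33.0% and 27.5% of all genes. TKO cells had 23 rises and 50 falls at 1 h, 57 rises and 43 falls at 2 h, and 70 rises and 33 falls at 4 h, with 13.1% and 9.25%, 24.4% and 22.9%, and 27.3% and 23.1% of all genes. With the authors' scaling left as it was, the split moved towards falls, for example to 23 rises and 69 falls in DKO cells at 1 h and to 53 and 60 in KO cells at 4 h, where the median of all genes shifted by −0.43.

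The genes called in WT cells were looked up in the knockout cells. Of the 55 falls at 1 h, 45 were called in DKO cells (81.8% of the WT list and 88.2% of the DKO list), 41 in KO cells (74.5% and 91.1%) and 44 in TKO cells (80.0% and 88.0%), and 36 (65.5%) in all 4 genotypes, 27 of these with a KRAB box. Of all 2002 genes that fell in WT cells at 1 h, 67.2%, 58.7% and 54.0% were called in DKO, KO and TKO cells and 41.2% in all 4 genotypes. Of the 35 rises at 1 h, 29, 31 and 22 were called in DKO, KO and TKO cells, and 19 (54.3%) in all 4 genotypes, 5 of these with a KRAB box, beside 60.4% of the rises of all genes. Of the 58 rises at 2 h, 50 were called in all 4 genotypes (86.2%, beside 77.1% over all genes), and of the 62 falls 32 (51.6%, beside 63.7%). The 66 rises at 4 h gave 58 (87.9%, beside 84.2%) and the 46 falls 24 (52.2%, beside 64.2%), with the fewest in KO cells, where 25 of the 46 falls were called (54.3%, beside 72.9%). Whether the genes differ from all genes in this was not tested. None of the genes called at 1 or 2 h was called in the opposite direction in a knockout (limma), and at 4 h 1 of the WT rises was called lower in DKO cells and 1 in TKO cells. Across the 167 genes the log2 changes in WT and knockout cells had correlations between 0.88 and 0.97, which describe genes, not independent replicates.

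At 1 h more KRAB genes were called lower than higher in each knockout too. In these genes 34 fell and 9 rose in DKO cells, 32 fell and 10 rose in KO cells, and 32 fell and 6 rose in TKO cells. By 4 h 35 KRAB genes rose and 11 fell in KO cells, against 21 and 24 in WT cells, and of the 45 genes that fell at 1 h in KO cells 10 were higher than at 0 h at 4 h. The direction of the KO count turned with the scale of the libraries. At the authors' scaling 20 KRAB genes rose and 35 fell in KO cells at 4 h, and 20 rises and 11 falls were called under all 3 scalings.

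The third comparison set each knockout against WT at the same time. In TKO cells 53 of the 167 genes were higher and 2 lower at 0 h, 50 higher and 6 lower at 1 h, 59 higher and 3 lower at 2 h, and 67 higher and 1 lower at 4 h. The shares of all genes tested were 19.3% higher and 18.0% lower at 0 h, 15.8% higher and 15.7% lower at 1 h, 20.0% higher and 16.5% lower at 2 h, and 27.4% higher and 16.3% lower at 4 h. In the level classes from 100 upwards, 21.2% to 30.5% of protein-coding genes were higher and 8.43% to 13.5% lower at 0 h. At 1 h 15.7% to 23.4% were higher and 8.66% to 17.5% lower, and at 2 h 19.2% to 30.8% and 6.27% to 14%. At 4 h 35.2% to 40.4% were higher and 3.12% to 10.6% lower. Of the 167 genes 40.7% were called at 4 h, all but 1 higher, which is near the class shares of higher genes. The median log2 difference of the 167 genes was 0.22, 0.16, 0.27 and 0.28, beside 0.07, 0.00, 0.03 and 0.20 over all genes. Left at the authors' scaling, TKO cells had 67 higher and 1 lower at 0 h, 24 and 32 at 1 h, 50 and 7 after 2 h, and 26 and 3 after 4 h. Called under all 3 scalings were 36 and 1, 24 and 6, 50 and 3, and 26 and 1 genes, so that at 1 h the lean to higher values was not seen at the authors' scaling. Among the 76 genes at 100 or more in every group, 20 were higher and 3 lower at 2 h, and among the other 91, 39 and 0 (limma). Marker genes moved with the genotype as well. The B cell list, almost wholly Ighm, summed to between 350 and 511 CPM in TKO and between 113 and 234 CPM in WT libraries at 0 h, and to between 65.2 and 88.9 and between 13.3 and 26.1 CPM at 4 h. At 4 h the T cell list lay between 1040 and 1210 CPM in TKO, 939 and 1160 CPM in KO and 690 and 819 CPM in WT libraries. The CD8 T cell list lay between 21.3 and 30.1 CPM in TKO, 13.9 and 51.5 CPM in KO and 4.92 and 17.5 CPM in WT libraries. In KO libraries it ran from 5.15 to 35.6 CPM at 0 h, 4.3 to 43.3 at 1 h and 4.55 to 49.3 at 2 h. The highest WT sums at these times were 16.4, 20.0 and 18.2 CPM. The restimulation genes lay between 4420 and 5070 CPM in TKO and between 5130 and 6530 CPM in WT libraries at 1 h. The part of these shifts in the differences from WT was not tested.

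In DKO cells 12 genes were higher and 1 lower than in WT at 0 h, 28 higher and 1 lower at 1 h, 35 higher and 0 lower at 2 h, and 17 higher and 0 lower at 4 h (limma), beside 5.32% and 2.27%, 5.94% and 2.26%, 7.97% and 1.51%, and 4.68% and 0.688% of all genes. In the level classes from 100 upwards, 6.58% to 8.29% of protein-coding genes were higher at 0 h and 7.28% to 8.75% at 1 h. The same classes gave 8.15% to 13.5% at 2 h and 6.29% to 7.36% at 4 h. Of the 35 at 2 h, 25 had a KRAB box, as did 80 of all 167 genes. The other times were less one-sided. In the level class from 100 to 200, 4.55%, 15.9%, 27.3% and 11.4% of KRAB genes were higher at 0, 1, 2 and 4 h. The other Zfp genes of that class gave 9.09%, 18.2%, 9.09% and 0.0%. From 200 to 400 the shares were 6.9%, 27.6%, 41.4% and 10.3% against 4.17%, 25.0%, 20.8% and 16.7%. The difference between KRAB and other genes was not tested. At the authors' scaling 88 genes were higher and 0 lower at 0 h, 17 and 4 at 1 h, 20 and 1 after 2 h, and 8 and 0 after 4 h, and under all 3 scalings it was 10 and 0, 17 and 1, 20 and 0, and 8 and 0. The choice of libraries weighed on these counts. With only the compared groups fitted, 2.4%, 4.19% and 5.99% of the 167 genes were called at 0, 1 and 2 h, in place of 7.78%, 17.4% and 21%. Single libraries counted too. At 0 h 7.78% of the genes were called, and 4.19% to 4.79% without the third library listed for DKO or the first or the second for WT. At 1 h 17.4% were called, and 8.38% without the second DKO library and 10.2% and 8.98% without the third and the fourth WT library. At 4 h 10.2% were called, and between 4.19% and 6.59% without the first, the second or the third DKO library or the first, the second or the fourth WT library.

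In KO cells 2 genes were higher at 0 h, 6 higher and 1 lower at 1 h, 13 higher and 0 lower at 2 h, and 62 higher and 1 lower at 4 h. The share of all genes that was higher and lower was 1.17% and 0.167%, 1.84% and 0.322%, 4.65% and 1.23%, and 21.6% and 11.4%. In the level classes from 100 upwards, 21.2% to 38.9% of protein-coding genes were higher and 0.898% to 8.98% lower at 4 h. The count at 4 h rested on the scale of the libraries, being 7 and 1 at the authors' scaling and 18 and 1 with median-ratio scaling, with the median of all genes shifted by −0.27 and −0.15. Under all 3 scalings it was 7 and 1. At 1 h 4.19% of the 167 genes were called, and 2.4% or less without the second or the fourth KO library or the first, the third or the fourth WT library. At 0 h the 1.2% called became 1.8% without the fourth WT library.

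**Figure D4:**
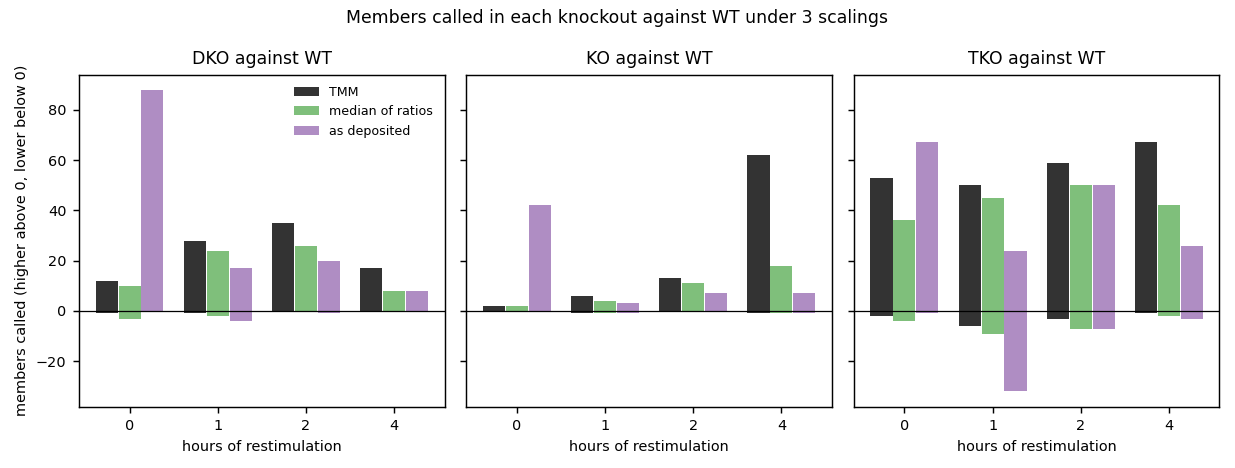
Number of the 167 genes called higher or lower in each knockout against WT at 0, 1, 2 and 4 h, under TMM scaling, the authors' scaling and median-ratio scaling. In KO cells at 4 h the number of higher genes is 62, 7 and 18, while in TKO cells at 2 h it is 59, 50 and 50.

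Zfp703 differed most. Its normalised values at 1 h were 82.1, 87.7, 57.8 and 69.5 in WT cells, 197, 365, 207 and 135 in DKO cells, 186, 227, 202 and 209 in KO cells, and 701, 961, 882 and 629 in TKO cells. Every knockout library lay above every WT library, and every TKO library above all others. The log2 differences from WT were 1.52 ± 0.24, 1.47 ± 0.24 and 3.40 ± 0.24 at 1 h (limma adjusted p = 1e-05, 3.4e-05 and 6.5e-17). Before restimulation the test was passed in TKO cells, with 127, 84.4, 92.9 and 113 against 33.4, 24.6, 38.8 and 42.7 in WT cells (1.56 ± 0.24), and not in DKO and KO cells, where the differences were 0.33 ± 0.24 and 0.14 ± 0.24. At 2 and 4 h it stayed higher in TKO (2.11 and 1.73) and KO cells (1.52 and 1.31).

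Zfp827 differed before restimulation. At 0 h it stood at 131, 86.6, 131 and 260 in WT cells, 751, 446, 710 and 643 in DKO cells, 367, 498, 383 and 442 in KO cells, and 1140, 847, 840 and 926 in TKO cells. Every knockout library lay above every WT library, while those of DKO and KO cells overlapped, and the log2 differences from WT were 2.15 ± 0.32, 1.57 ± 0.32 and 2.72 ± 0.32 (limma adjusted p = 3.7e-06, 0.0021 and 3.5e-09). At 1 h Zfp827 was still called higher in DKO and TKO cells, with no overlap with the WT libraries. At 2 and 4 h no difference passed the test (0.85, 0.20 and 0.73 in DKO, KO and TKO cells at 2 h, and 0.51, 0.09 and 0.20 at 4 h). Zfp281 was higher before restimulation too, with 603, 390, 532 and 413 in DKO, 481, 445, 396 and 522 in KO and 572, 594, 448 and 601 in TKO cells at 0 h against 271, 312, 293 and 292 in WT cells (0.71, 0.65 and 0.91). At 1 h its differences were 0.02, 0.16 and −0.15, none of which passed.

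Zfp217 was higher in KO and TKO cells. At 2 h it stood at 421, 411, 424 and 400 in WT cells, 517, 542, 550 and 420 in DKO cells, 1010, 950, 1230 and 775 in KO cells and 923, 689, 883 and 1100 in TKO cells. KO and TKO libraries lay above all those of WT and DKO, with log2 differences from WT of 1.24 ± 0.12 and 1.10 ± 0.12 (limma adjusted p = 9.6e-11 and 5.8e-10), and 0.29 ± 0.12 in DKO cells (limma adjusted p = 0.14). Zfp318, which shapes IgD splicing in B cells, was higher in KO and TKO cells at 4 h (0.85 ± 0.19 and 1.33 ± 0.19), with 138, 189, 178 and 164 in WT against 344, 518, 391 and 447 in TKO cells. Zfp608 was higher at 4 h in both as well (2.02 ± 0.39 and 2.26 ± 0.39), although it varied widely between libraries at 0 h, with 203, 147, 252 and 493 in WT cells.

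Zfp157, which fell in WT cells at 1 h, was higher in DKO and TKO cells. At 2 h its values were 32.0, 39.3, 26.4 and 25.5 in WT cells, 77.7, 94.9, 105 and 68.3 in DKO cells, 43.4, 60.9, 24.5 and 38.5 in KO cells and 97.4, 106, 112 and 93.1 in TKO cells. DKO and TKO libraries stood above all WT and KO libraries, by 1.46 ± 0.17 and 1.71 ± 0.17 from WT (limma adjusted p = 9.4e-09 and 1e-11), and KO cells gave 0.38 ± 0.17 (limma adjusted p = 0.18). Together with Zfp369, a binding partner of the neurotrophin receptor, it was called higher in DKO cells at all 4 times, though neither was under all 3 scalings, and in TKO cells 18 genes were, 8 of them under all 3 scalings (Zfp12, Zfp157, Zfp369, Zfp422, Zfp703, Zfp760, Zfp938 and Zfp944). At single times, 4.68% to 7.97% of all genes tested were higher in DKO cells and 15.8% to 27.4% in TKO cells. The share of all genes called higher at all 4 times was not computed, so these counts are a description only. Zfp446 was higher in DKO and TKO cells at 0 h (1.45 ± 0.24 and 1.26 ± 0.24), and its difference in KO cells was 0.22 ± 0.24.

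Lower values were few. Zfp275 was higher in DKO and TKO cells at 0 h (0.53 and 0.63) and lower in all 3 knockouts at 1 h, with 634, 449, 488 and 490 in WT cells, 404, 354, 334 and 374 in DKO, 496, 408, 318 and 306 in KO and 318, 305, 362 and 299 in TKO cells (−0.48 ± 0.12, −0.45 ± 0.12 and −0.67 ± 0.12). The KO and WT libraries overlapped. The DKO call was lost when the first WT library was left out (−0.38) or when only the compared groups were fitted. Zfp764, which shares coding stretches with another gene, was lower in TKO cells at 1 h (−1.03 ± 0.20), and Zfp367 was lower in TKO cells at 0 and 1 h (−0.47 ± 0.14 and −0.62 ± 0.14). Zfp948 was lower in TKO cells at 4 h, with 134, 151, 136 and 146 against 229, 240, 252 and 200 (−0.70 ± 0.22). Zfp472 was lower in DKO cells at 0 h (−0.53 ± 0.16), a call lost without the first or the third DKO library or the third WT library, and Zfp945 in KO cells at 4 h (−0.59 ± 0.22).

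**Figure D5:**
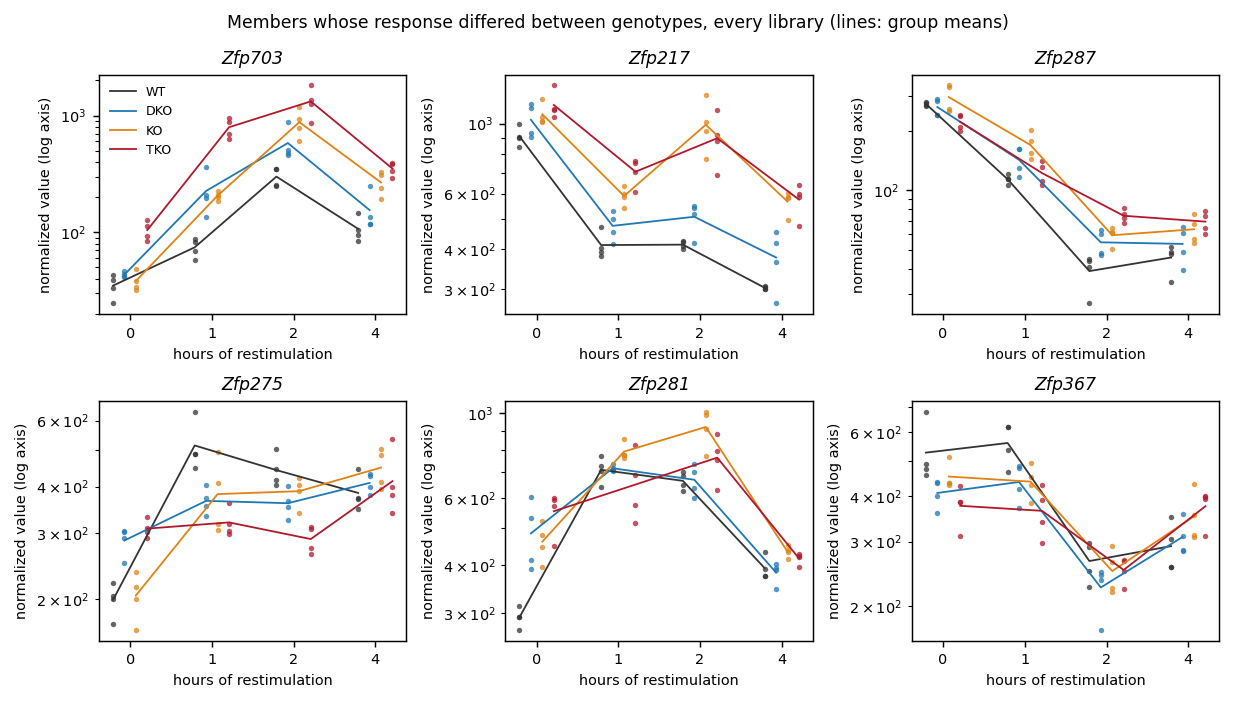
Normalised values of Zfp703, Zfp217, Zfp287, Zfp275, Zfp281 and Zfp367 in every library of the 4 genotypes at 0, 1, 2 and 4 h, on a log axis, with group means joined. Zfp703 is highest in TKO cells at each time, Zfp217 is higher in KO and TKO cells at 2 h, and Zfp281 differs between genotypes at 0 h.

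The last comparison tested whether the change from 0 h differed between a knockout and WT cells. In DKO cells 1, 3 and 1 of the 167 genes were called at 1, 2 and 4 h, in KO cells 0, 1 and 6 (limma), and in TKO cells 4, 15 and 13. Of all genes tested, 0.105%, 0.341% and 0.818% were called in DKO cells, 0.0248%, 0.204% and 2.17% in KO cells, and 0.781%, 4.59% and 6.62% in TKO cells. Zfp275 responded less in DKO and TKO cells at 1 h (−1.01 ± 0.18 and −1.31 ± 0.18) and Zfp281 less in TKO cells (−1.06 ± 0.16), both of which began from higher values at 0 h. Zfp703 responded more in TKO cells at 1 h (1.83 ± 0.34), and Zfp217 fell less in KO cells at 2 h (1.01 ± 0.18). Zfp827 rose less in TKO cells at 4 h (−2.52 ± 0.45). With only the compared groups fitted, 0 genes were called in DKO cells at each time and 6 in TKO cells at 2 h (limma). At the authors' scaling 6, 10 and 15 were called in DKO cells at 1, 2 and 4 h and 31 in TKO cells at 1 h. The 6 calls in KO cells at 4 h became 0 under all 3 scalings, and the count went from 3.59% to between 0.0% and 7.19% as single libraries were left out: it fell to 1.80% or less without the first or the third library of KO or WT at 0 h, the second or the fourth of KO at 4 h, or the first or the fourth of WT at 4 h, and reached 7.19% without the fourth of WT at 0 h. In TKO cells at 4 h the count fell from 7.78% to 4.79%, 3.59% and 4.19% without the second or the fourth TKO library or the fourth WT library of that time. Calls in DKO cells, and those in KO cells at 2 h, moved by 1 to 3 genes with single libraries.

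Genes of the machinery that KRAB proteins use, a list that also holds other chromatin repressors, were examined beside them. Of 31 rows tested (Atf7ip is listed under 2 identifiers), 8 rose and 3 fell at 1 h in WT cells, 12 rose and 11 fell at 2 h, and 13 rose and 13 fell at 4 h, with medians of 0.10, 0.19 and 0.03. The shares that rose and fell, 25.8% and 9.68%, 38.7% and 35.5%, and 41.9% and 41.9%, stand beside 18.7% and 12.4%, 26.5% and 25.4%, and 24.6% and 27.1% of all genes tested. Trim28, the corepressor itself, did not pass at 1 or 2 h (0.23 at both) and rose by 0.60 at 4 h, and Setdb1 rose by 0.52 at 4 h. The largest rise was that of the DNA methyltransferase Dnmt3a (2.17, 3.18 and 2.41), and the histone methyltransferase Ehmt2 fell by 1.22 and 1.92 on the log2 scale at 2 and 4 h. In TKO cells 8 rows were higher and 2 lower than in WT at 0 h, 3 higher and 5 lower at 1 h, 4 higher and 3 lower at 2 h and 12 higher and 1 lower at 4 h. As shares of the 31 rows these are 25.8% and 6.45%, 9.68% and 16.1%, 12.9% and 9.68%, and 38.7% and 3.23%, beside 19.3% and 18.0%, 15.8% and 15.7%, 20.0% and 16.5%, and 27.4% and 16.3% of all genes tested. At the authors' scaling 2 rows were higher and 13 lower at 1 h, and 1 higher and 2 lower at 4 h.

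Of the other zinc finger families, 39 Zbtb genes, in which a BTB domain stands before the fingers, gave 8 rises and 5 falls at 1 h, 15 rises and 10 falls at 2 h and 16 rises and 13 falls at 4 h in WT cells, with a median of 0.12 at 1 h. The 18 Zscan and Zkscan genes gave 3 rises and 10 falls at 1 h (median −0.59), 1 and 7 at 2 h, and 4 and 4 at 4 h. Of all genes tested 18.7% rose and 12.4% fell in WT cells at 1 h, and the 8 rises and 5 falls of 39 Zbtb genes were near these shares, while of the Zscan and Zkscan genes 16.7% rose and 55.6% fell. In TKO cells 10 of these 18 were higher and 0 lower than in WT at 1 h (limma), with a median of 0.47, against 8 and 6 of the 39 Zbtb genes, with a median of 0.02. Of all genes tested 15.8% and 15.7% were higher and lower there. At the authors' scaling the counts became 4 and 2 for the Zscan and Zkscan genes and 4 and 12 for the Zbtb genes.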

How the data were processed

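RNA was sequenced from 64 libraries, 4 for each of 16 groups. The deposited table gives, per the file headers, 4 normalised read counts per gene and group, other values being the authors' group means of this count signal. They were mapped to GRCm38 per the submitters' processing notes, with the aligner, counting and strand not given in the sources used here. Low values were whole multiples of 1 step per library (100% of them within 0.1 of a whole read), which gave the depth. The values are not raw counts, so limma 3.58.1 (R 4.3.3) was used in place of a count model. Values were rescaled by TMM (trimming 30% of ratios and 5% of levels), and genes with at least 1.3 CPM in 4 libraries and 15 reads in all were kept. log2(value + 1) was fitted with 1 mean per group (48 residual degrees of freedom, trended and robust empirical Bayes), so a fold is on the log2(value + 1) scale and understates changes of low genes. p-values were 2-sided and adjusted by Benjamini-Hochberg over all 16140 genes. The procedure was tested on simulated data. The labels name no batch.

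The members and lists were chosen with earlier results of these data known. Genes were named by rule: the 5 largest rises and falls at each WT time and up to 3 in each direction per knockout contrast, called and with groups not overlapping, the 5 highest per length, those beside the limit of 100, members with a textbook role, and for the leading genes of WT cells the 3 most like courses. Genes of the runs, the families and the corepressor list were picked after their values were seen. Of the table's other columns, 32 hold other group values and 240 the authors' own comparisons, and these were not used. Alternatives were the authors' and a median-ratio scaling, a pseudocount of 5, no low-value filter, limma voom, a fit of the compared groups only, other choices of members and leaving out each library.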

Additional observations from a re-analysis of the deposited data

Results flagged for a closer look

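The change from 0 h differed between a knockout and WT cells in the genes below (limma test of the difference itself, adjusted p under 0.05 over all genes). Values are log2 changes in the knockout minus those in WT cells, so that a positive value means a larger rise or a smaller fall in the knockout. No explanation was tested.

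In DKO cells Zfp275 differed by −1.01 at 1 h and −0.82 at 2 h, and Zfp281 by −0.70 at 2 h and −0.75 at 4 h. Both had been higher in DKO cells at 0 h. Zfp788 differed by 0.93 at 2 h. In KO cells Zfp217 differed by 1.01 at 2 h and 0.67 at 4 h. At 4 h the others in KO cells were Zfp148 (0.48), Zfp398 (0.62), Zfp7 (0.80), Zfp703 (1.18) and Zfp942 (0.62). None of the 6 KO calls at 4 h held under all 3 scalings.

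In TKO cells at 1 h Zfp251 differed by −1.01, Zfp275 by −1.31, Zfp281 by −1.06 and Zfp703 by 1.83. At 2 h 11 genes had positive values, namely Zfp141 (0.93), Zfp157 (1.11), Zfp217 (0.78), Zfp287 (1.24), Zfp292 (0.81), Zfp398 (0.58), Zfp512 (0.66), Zfp7 (0.68), Zfp788 (0.77), Zfp871 (0.46) and Zfp942 (0.68). Negative values at 2 h were those of Zfp106 (−0.52), Zfp275 (−1.24), Zfp281 (−0.72) and Zfp827 (−1.99). At 4 h Zfp217 (0.59), Zfp287 (0.90), Zfp362 (0.90), Zfp367 (0.84), Zfp386 (1.08), Zfp512 (0.67), Zfp7 (0.83) and Zfp831 (1.06) had positive values. Zfp106 (−0.37), Zfp275 (−0.55), Zfp281 (−0.83), Zfp609 (−0.73) and Zfp827 (−2.52) had negative ones.

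Some single libraries lay far from the other 3 of their group, which chance alone gives in about 5% of groups. The share of reads in the 167 genes was 0.538% in 1 KO library at 0 h. Zfp827 had a normalised value of 577 in 1 WT library at 1 h. Zfp703 had 883 in 1 DKO library at 2 h and 250 in 1 at 4 h. Zfp157 had 61.6 in 1 WT library at 4 h and 35.9 in 1 KO library at 1 h. Zfp386 had 405 in 1 WT library at 0 h, 72.8 in 1 KO library at 4 h and 294 in 1 TKO library at 0 h.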

How the results depend on the processing

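For the WT and knockout time courses the share of the 167 genes called stayed within 1.5 times its value under every alternative run. Counts against WT and differences in response moved more, in percent of the genes called. With the authors' scaling DKO against WT gave 52.7 at 0 h, 12.6 at 2 h and 4.79 at 4 h, KO gave 25.1, 2.4, 4.19 and 4.79 at 0, 1, 2 and 4 h, and TKO 17.4 at 4 h. With median-ratio scaling DKO gave 4.79, KO 11.4 and TKO 26.3 at 4 h. Fitting the compared groups only gave DKO 2.4, 4.19 and 5.99 at 0, 1 and 2 h, KO 1.8 at 1 and 2 h and TKO 17.4 at 0 h. KO gave 4.79 at 2 h by limma voom and 1.8 at 1 h without the low-value filter. Over all 292 Zfp-number genes tested KO gave 0.685 at 0 h and 2.74 at 1 h, and over the 76 genes 2.63 at 0 h. For differences in response the authors' scaling gave DKO 3.59, 5.99 and 8.98, KO 1.8, 3.59 and 5.99 and TKO 18.6 at 1 h, and the compared groups alone DKO 0.0 at each time, KO 1.2 at 4 h and TKO 3.59 at 2 h. A pseudocount of 5 gave 1.2 for DKO at 4 h and KO at 2 h, median-ratio scaling 0.599 and no filter 1.2 for KO at 4 h. All Zfp-number genes gave DKO 0.342, 1.03 and 0.342, KO 0.342 and 2.05 at 2 and 4 h, and TKO 1.37 and 5.14 at 1 and 4 h, and the 76 genes 1.32 for DKO at 1 and 4 h and KO at 2 h. The cause was not tested.

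Leaving out 1 library at a time gave these ranges, in percent of the genes called. In WT cells the changes from 0 h gave 49.1 to 53.9, 67.7 to 71.9 and 63.5 to 67.7 at 1, 2 and 4 h. In DKO cells the changes from 0 h gave 43.1 to 49.7, 65.9 to 69.5 and 65.3 to 67.7 at 1, 2 and 4 h. In KO cells the changes from 0 h gave 41.3 to 46.1, 65.9 to 70.7 and 65.3 to 68.9 at 1, 2 and 4 h. In TKO cells the changes from 0 h gave 37.1 to 44.3, 56.9 to 61.7 and 58.7 to 62.3 at 1, 2 and 4 h. DKO against WT gave 4.19 to 10.8, 8.38 to 19.8, 14.4 to 22.8 and 4.19 to 11.4 at 0, 1, 2 and 4 h, and its difference in response 0.599 to 1.2, 1.2 to 2.4 and 0.599 to 2.4 at 1, 2 and 4 h. KO against WT gave 1.2 to 1.8, 1.2 to 3.59, 5.39 to 10.2 and 26.3 to 38.3 at 0, 1, 2 and 4 h, and its difference in response 0 to 0, 0.599 to 1.2 and 0 to 7.19 at 1, 2 and 4 h. TKO against WT gave 25.7 to 34.1, 28.1 to 32.9, 34.1 to 39.5 and 35.3 to 43.1 at 0, 1, 2 and 4 h, and its difference in response 2.4 to 2.99, 5.99 to 11.4 and 3.59 to 7.78 at 1, 2 and 4 h.

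Of 1022 alternatives for 73 results of named genes, 992 kept their call, 30 kept the direction and lost it, and 0 changed direction. Those that lost it belong to Zfp12, Zfp275, Zfp472, Zfp760 and Zfp810 in DKO cells, Zfp287 and Zfp386 in KO cells and Zfp367 in TKO cells. No paired analysis was possible because the deposited lists carry no replicate numbers. The count model planned on recovered reads was not run. Low genes have few reads, so small changes among them were not detectable at this depth.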
